A study of Mus musculus with 8 samples.

Results

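The genes described here make, bind or break down hyaluronan. They are the synthase genes Has1, Has2 and Has3, the proteoglycan gene Vcan (versican), the link protein gene Hapln1, the receptor genes Cd44 and Hmmr, and the hyaluronidase genes Hyal1 and Hyal2. A gene counted as measured where a probe set carried its symbol and no other, and its brightest probe set, by the mean of the 8 arrays, stood for it. By this rule 8 of the 9 genes were measured, among 18193 genes in all, and their 26 probe sets were among 45101 on the array. Hyal1 was not measured, since both of its probe sets also carry the symbol Naa80.

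The cells were primary palatal mesenchyme of C57BL/6J mouse embryos taken at embryonic day 13.5 and grown for 2 passages. Mutant cultures carried Tgfbr2 fl/fl and Wnt1-Cre, a transgene whose Wnt1 regulatory sequence directs Cre to the neural crest, so that the floxed TGF-beta receptor gene is cut in cells of that lineage and left whole in others. Control cultures carried Tgfbr2 fl/fl without Cre. There were 4 Affymetrix arrays for mutants and 4 for controls, a number that limits the precision of every value, and whether the 4 came from separate embryos is not stated in the labels. The p-values therefore reflect how far these samples spread, and that spread may be technical. Values are log2 intensities, differences are mutant minus control on the log2 scale, and a gene passed where its limma p, Benjamini-Hochberg adjusted over all 18193 genes, was under 0.05.

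Hyaluronan is a long unbranched sugar polymer that synthases in the plasma membrane extrude into the matrix. Versican binds it through an amino-terminal domain, link proteins lock that complex, and CD44 holds it at the cell surface. The polymer takes up water, and swelling of a hyaluronan-rich matrix is known to take part in the elevation of the palatal shelves. Hyaluronidases and the glycosidases of the lysosome break it down.

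Several features of the arrays touch the values below. Tgfbr2 itself averaged 12.42 ± 0.47 in mutants and 12.04 ± 0.40 in controls (SD, n = 4 each) on its brightest probe set. The sources used here do not place that probe set inside or outside the floxed segment, so it checks no genotype label. The labels name no batch, but the spiked bioB hybridisation controls split the arrays in 2. Replicates 1 and 2, mutant and control, had 6.34 to 6.52 and are called the first hybridisation batch for short. Replicates 3 and 4 had 8.24 to 8.79 and are called the second. The spiked poly-A controls, added before labelling, split them otherwise, with 6.77 to 7.56 on mutants 3 and 4 and control 3 and 8.53 to 9.21 on the rest, called the labelling batches. Both groupings were inferred from these signals. The array control probe sets for 18S ribosomal RNA divided the arrays as the poly-A controls did. They had 8.97 to 9.70 on mutants 3 and 4 and control 3 and 11.94 to 12.86 on the rest, and the reason was not tested. Of 11 mesenchyme markers, 10 exceeded the median probe set (6.93) in every sample. The other, Osr2, named after its values were seen, lay below it on every array. Of 21 macrophage and leukocyte markers 20 exceeded it in every sample, against 2 of 8 epithelial and 1 of 6 endothelial markers. All 21 macrophage and leukocyte markers had higher values in mutants, with a median difference of 0.81, and none passed after adjustment over all genes. The macrophage mean was 13.20, 13.20, 13.22 and 11.06 in mutants 1 to 4, against 12.38, 12.60, 11.17 and 11.01 in controls 1 to 4, so mutant 4 stood apart from the other mutants. In a bulk culture fewer cells of a type and less RNA per cell cannot be told apart.

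No hyaluronan gene passed the test between mutants and controls. Over all genes 16 passed, 0.0879% of those tested, with 0.066% lower and 0.022% higher in mutants. Has2 and Vcan had the largest differences of the 8, both lower in mutants by about 2-fold, and Hapln1 was lower by a smaller amount at a dim level. These 3 genes had an unadjusted limma p under 0.05 with lower values in mutants, and Has3 had one with higher values. That is 4 of 8 genes, where 15.5% of all genes reached it. The members were chosen with earlier results of these data known, so this share is not an independent test. Has3 and Hapln1 also lay below the median probe set on every array. The median difference of the 8 was -0.22, and over all genes it was -0.01. For none of the 8 did the arrays of the genotypes separate fully on the brightest probe set, as they did for 8.07% of all genes, 5.18% with lower and 2.89% with higher values in mutants. Among the 26 probe sets of the members 19 had lower and 7 had higher values in mutants, and 9 had an unadjusted limma p under 0.05, where 14.1% of all probe sets reached it. With arrays weighted in limma by their scatter in these same data, 2 of the 8 genes passed, Has2 and Vcan, as did 8.08% of all genes. The weights were 0.36 for mutant 4, 0.40 for control 4, 0.55 for control 3 and 0.92 for mutant 3. Replicates 1 and 2 had 1.67 to 2.35. This setting therefore shares much with the fits without mutant 4 and within the first hybridisation batch, and they are not separate support.

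Has2 encodes the synthase that makes most hyaluronan in the mouse embryo. It read 8.41, 9.14, 8.41 and 9.61 in mutants 1 to 4, against 9.87, 9.56, 10.60 and 10.60 in controls 1 to 4. In 3 of the 4 mutants it lay below every control, and mutant 4 lay just above control 2. The means were 8.89 ± 0.59 in mutants and 10.16 ± 0.52 in controls (SD, n = 4 each), a difference of -1.26 (SE 0.34, 95% interval -2.04 to -0.49) or 2.40-fold, with adjusted p = 0.189 in limma. The second probe set of Has2, 1418678_at, read 8.41, 9.06, 7.81 and 8.99 in mutants, against 9.61, 9.35, 9.77 and 10.29 in controls. On it every mutant lay below every control, with a difference of -1.18 (SE 0.30, adjusted p = 0.196 in limma, taken over the 45037 probe sets that are not array controls).

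The Has2 difference had the same sign in both hybridisation batches, with -0.94 in the first and -1.58 in the second. Once the macrophage mean was added to the fit it was -0.81 (adjusted p = 0.138 in limma), 1.56 times smaller than without it. Without mutant 4, the mutant with the least macrophage signal, Has2 differed by -1.50 and passed (adjusted p = 0.0332 in limma). In that fit 7.23% of all genes passed. Mutant 4 also had the highest Has2 of the mutants, so leaving it out could only widen the difference.

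The other synthase genes showed smaller differences. Has1, a less active synthase, read 7.87, 7.77, 7.89 and 8.02 in mutants, against 7.98, 8.14, 8.38 and 7.88 in controls. The genotypes overlapped, and the difference was -0.21 (SE 0.12, 95% interval -0.47 to 0.06, adjusted p = 0.434 in limma). Within the hybridisation batches Has1 differed by -0.24 and -0.18. Has3, the synthase known for making shorter chains, read 5.93, 5.82, 5.89 and 6.17 in mutants, against 5.70, 5.64, 5.85 and 5.70 in controls. It lay below the median probe set on every array, and 3 of the 4 mutants lay above every control. Its difference was 0.23 (SE 0.09, 95% interval 0.01 to 0.44, adjusted p = 0.305 in limma), opposite in sign to those of Has1 and Has2; the differences between the synthases were not tested. Within the batches Has3 differed by 0.21 and 0.25.

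**Figure D1:**
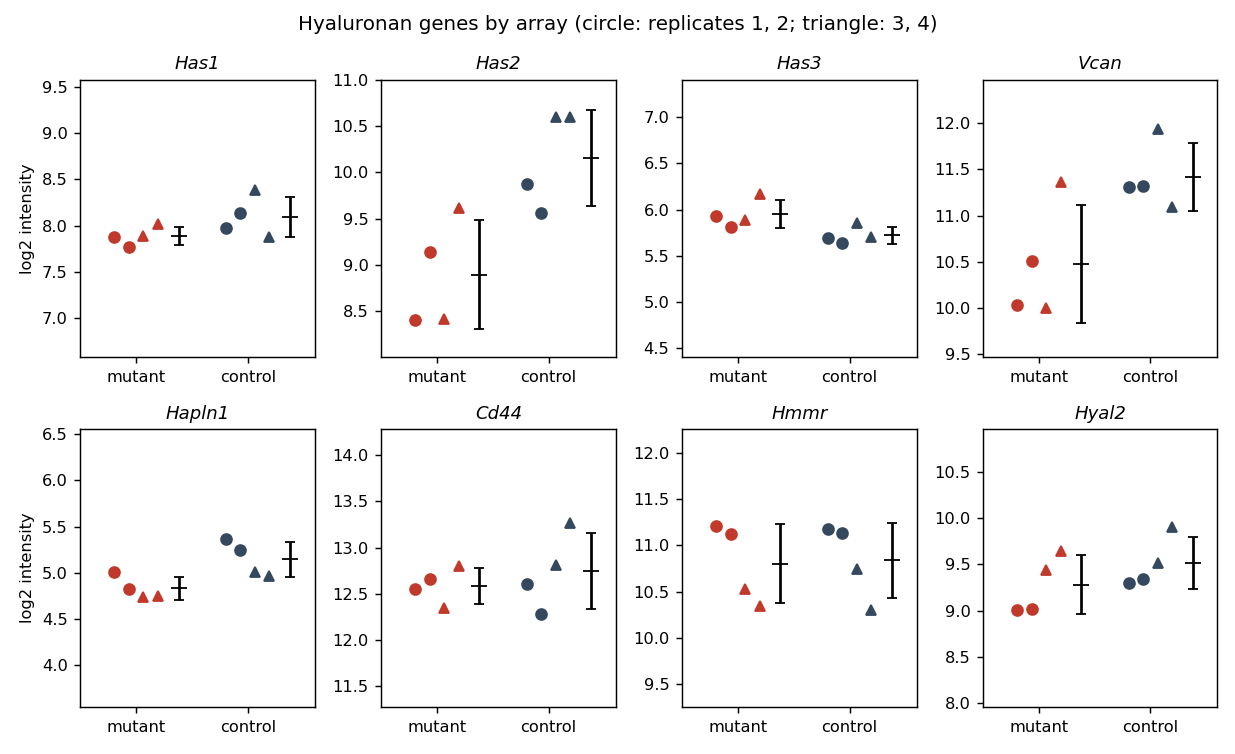
Log2 intensity of the 8 measured hyaluronan genes (vertical axes, each spanning 3 log2 units) in mutant and control arrays. Points are arrays, circles for replicates 1 and 2 and triangles for 3 and 4, and bars give mean ± SD (n = 4). Mutants 1 to 3 lie below all controls for Has2 and Vcan, and mutant 4 lies among the controls.

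Vcan encodes versican, the large proteoglycan that links hyaluronan to other matrix proteins. It read 10.03, 10.51, 9.997 and 11.37 in mutants 1 to 4, against 11.31, 11.32, 11.94 and 11.09 in controls 1 to 4. Mutants 1, 2 and 3 lay below every control, whereas mutant 4 was higher than all controls but control 3. The means were 10.48 ± 0.64 in mutants and 11.41 ± 0.36 in controls (SD, n = 4 each), a difference of -0.94 (SE 0.32, 95% interval -1.66 to -0.21) or 1.92-fold, with adjusted p = 0.242 in limma. It was -1.04 within the first hybridisation batch, on replicates 1 and 2 of each genotype alone. There Vcan passed (adjusted p = 0.0138 in limma), as did 11.5% of all genes. Those replicates were the most alike of the series, with correlations over probe sets of 0.996 between the mutants and 0.997 between the controls. Within the second batch Vcan differed by -0.83 (adjusted p = 0.822 in limma). Once the macrophage mean was added to the fit the Vcan difference was -0.59, 1.58 times smaller than without it (adjusted p = 0.285 in limma). Without mutant 4 Vcan differed by -1.23 and passed (adjusted p = 0.0245 in limma), in a fit where 7.23% of all genes passed. Mutant 4 had the highest Vcan of the mutants, so leaving it out could only widen the difference.

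Vcan had 8 probe sets, of which 3 lay above the median probe set. These 3 differed by -0.94, -0.99 and -0.97. On 1421694_a_at the arrays read 9.25, 9.64, 8.57 and 10.35 in mutants, against 10.31, 10.36, 10.69 and 10.40 in controls, so mutant 4 again lay within the control range and the other mutants below it. The 5 dim probe sets, with means from 3.86 to 4.93, differed by -0.06 to 0.21. Averaging all 8 gave a Vcan difference of -0.33, and averaging the 3 bright ones, an alternative chosen after the values were seen, gave -0.96.

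Hapln1 encodes the link protein that stabilises versican or aggrecan on hyaluronan. All 4 of its probe sets were below the median probe set on every array. The brightest read 5.01, 4.83, 4.74 and 4.75 in mutants, against 5.36, 5.25, 5.01 and 4.96 in controls, and differed by -0.31 (SE 0.11, 95% interval -0.57 to -0.05, adjusted p = 0.259 in limma). Mutant 1 lay just above controls 3 and 4, and the other mutants lay below all controls. On 1438020_at the values were 4.05, 4.15, 4.19 and 4.26 in mutants, against 5.25, 4.65, 4.62 and 4.62 in controls, with no overlap and a difference of -0.62 (SE 0.15, adjusted p = 0.195 in that limma fit of probe sets). Probe set 1426295_at also had every mutant below every control, with a difference of -0.41, and the remaining one differed by -0.26. Across all probe sets on the array the genotypes did not overlap for 7.56%. Within the hybridisation batches the brightest probe set of Hapln1 differed by -0.38 and -0.24, and with the macrophage mean in the fit by -0.41. Chondrocyte markers, which include genes of the tissue best known for Hapln1, averaged 6.63 to 6.72 in mutants and 6.66 to 6.995 in controls, and 2 of 7 exceeded the median probe set in every sample; their part in the Hapln1 difference was not tested. The mean covers members that differed in opposite directions. Sox9, the transcription factor that drives cartilage genes, averaged 7.78 ± 0.23 in mutants and 8.82 ± 0.47 in controls (SD, n = 4 each) and differed by -1.04 (SE 0.23, adjusted p = 0.178 in limma). Col2a1, the main cartilage collagen, averaged 6.73 ± 0.19 in mutants and 7.40 ± 0.60 in controls (SD, n = 4 each) and differed by -0.67 (SE 0.27, adjusted p = 0.298 in limma). For both, which were named after their values were seen, every mutant lay below every control. That is 2 of 7 markers, where 5.18% of all genes had no overlap and lower values in mutants. Col2a1 exceeded the median probe set on the 4 control arrays and on no mutant. The median difference of the 7 markers was 0.05. The other 5 markers differed by -0.08 to 0.25.

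Hapln1 and Vcan are next to each other on chromosome 13 with no other protein-coding gene between them, in the RefSeq table of GRCm38.p6. Since both had lower values in mutants, the 250 bases before their annotated starts are shown, as given by RefSeq for that assembly, written from 5′ to 3′ on the strand of the gene. Capitals mark CAGAC or its complement GTCTG, the core that SMAD proteins bind, and the AP-1 motif TGANTCA was searched on both strands as well.
Vcan, chr13:89742513-89742762, minus strand: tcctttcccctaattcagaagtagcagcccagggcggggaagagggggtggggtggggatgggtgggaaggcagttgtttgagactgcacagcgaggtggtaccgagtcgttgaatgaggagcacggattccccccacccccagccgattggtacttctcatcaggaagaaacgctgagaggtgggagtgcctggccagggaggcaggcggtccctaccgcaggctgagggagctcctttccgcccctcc
Hapln1, chr13:89540386-89540635, plus strand: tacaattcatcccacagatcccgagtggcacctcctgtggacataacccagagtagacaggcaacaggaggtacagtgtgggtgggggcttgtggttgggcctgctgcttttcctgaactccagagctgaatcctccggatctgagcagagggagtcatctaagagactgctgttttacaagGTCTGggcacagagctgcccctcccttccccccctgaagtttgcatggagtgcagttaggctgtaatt
The Vcan window held no match to either motif. The Hapln1 window held 1 CAGAC match and no TGANTCA. Of the 9 hyaluronan genes 7 had a window in the table, all but Has2 and Has3. Windows of Has1, Hyal1 and Hapln1 held CAGAC, 3 of 7, and 0 of 7 held TGANTCA. Among all 32851 windows of that length 42.2% held CAGAC and 6.75% held TGANTCA, so the CAGAC share of the members is close to that of promoters at large. A match is a run of letters and says nothing of binding.

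Cd44 encodes the main hyaluronan receptor, carried by mesenchymal cells and by leukocytes alike. Its brightest probe set read 12.55, 12.66, 12.34 and 12.80 in mutants 1 to 4, against 12.60, 12.29, 12.81 and 13.27 in controls 1 to 4. The genotypes overlapped, and the difference was -0.15 (SE 0.20, 95% interval -0.62 to 0.31, adjusted p = 0.751 in limma). Within the first hybridisation batch Cd44 differed by 0.16, within the second by -0.47; it was 0.02 without control 4, and 0.07 with the macrophage mean in the fit, so its sign was not stable. Probe sets of Cd44 read single arrays differently. Control 3 had the lowest value of the 8 arrays on 1423760_at (11.74) and the second highest on 1434376_at (12.81) and on 1452483_a_at (10.19). The differences on these probe sets were 0.01, -0.15 and -0.34.

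Hmmr encodes RHAMM, a hyaluronan-binding protein that is also part of the mitotic spindle and peaks in dividing cells. It read 11.21, 11.12, 10.53 and 10.35 in mutants 1 to 4, against 11.17, 11.14, 10.74 and 10.30 in controls 1 to 4. The difference was -0.04 (SE 0.26, 95% interval -0.63 to 0.55, adjusted p = 0.959 in limma). Hmmr divided the arrays by hybridisation batch, with replicates 1 and 2 of both genotypes above replicates 3 and 4. Within those batches it differed by 0.01 and -0.09. With the macrophage mean in the fit Hmmr differed by -0.34 (SE 0.19, adjusted p = 0.380 in limma). The mean of 11 mitosis genes was 10.57, 10.74, 10.42 and 10.26 in mutants, against 10.82, 10.77, 10.47 and 10.46 in controls, and it too was higher on replicates 1 and 2 than on 3 and 4 within each genotype. Batch and rate of division cannot be told apart in these arrays. All 5 probe sets of Hmmr differed by between -0.08 and 0.09.

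Hyal2 encodes a hyaluronidase anchored at the cell surface that cuts long chains into fragments. It read 9.01, 9.01, 9.44 and 9.65 in mutants, against 9.29, 9.34, 9.51 and 9.91 in controls. In each genotype replicates 3 and 4 were above 1 and 2. The difference was -0.24 (SE 0.19, 95% interval -0.67 to 0.20, adjusted p = 0.583 in limma), with -0.30 and -0.17 within the hybridisation batches and -0.02 with the macrophage mean in the fit.

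**Figure D2:**
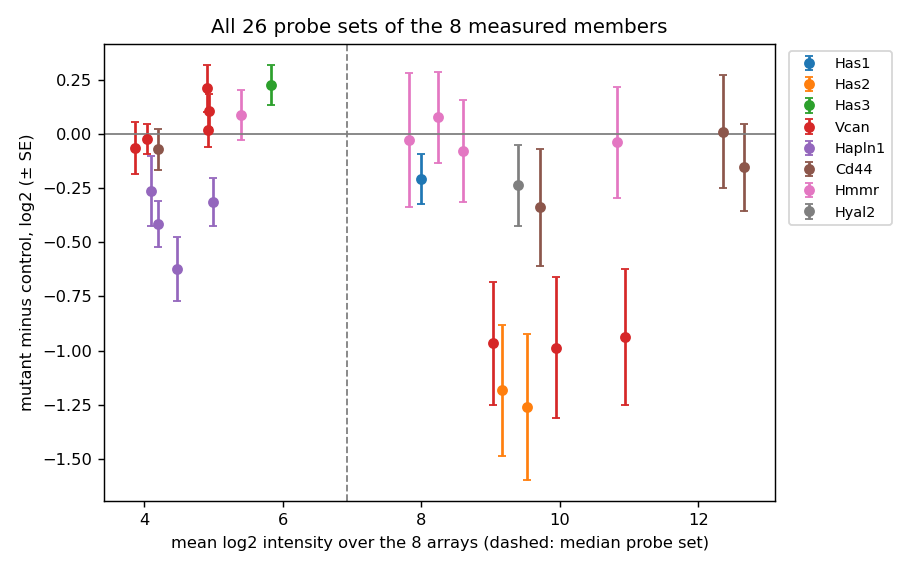
Difference between mutants and controls (vertical axis, log2, ± SE from limma) against mean log2 intensity over the 8 arrays (horizontal axis) for all 26 probe sets of the 8 measured genes, coloured by gene. Both Has2 probe sets and the 3 bright Vcan probe sets lie between -1.26 and -0.94, and the 5 dim Vcan probe sets lie near 0.

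Further genes of the hyaluronan pathway were taken from 4 lists of 46 genes, of which 45 were measured and 0 passed over all genes in limma. Unadjusted p was under 0.05 for 6 with lower and 2 with higher values in mutants, where 9.69% and 5.84% of all genes reached it in those directions. The median difference of the 45 was 0.01.

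Enzymes that supply the sugar precursors of hyaluronan had a median difference of -0.23 over 8 genes, 5 of them lower. Gfpt2, which starts the hexosamine pathway, averaged 7.84 ± 0.36 in mutants and 8.35 ± 0.26 in controls (SD, n = 4 each). It differed by -0.51 (SE 0.19, adjusted p = 0.274 in limma). Its paralogue Gfpt1, named after its values were seen, was brighter, with a mean of 10.77 over the arrays, against 8.10. Gfpt1 differed by -0.17 (SE 0.13, adjusted p = 0.580 in limma). Gnpnat1, a later step of that pathway, differed by -0.34 (SE 0.14, adjusted p = 0.311 in limma).

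Among 23 other hyaluronan-binding proteins and receptors, 8 were lower and 15 higher, with a median of 0.05. Only 12 of the 23 exceeded the median probe set on every array. Tnfaip6 encodes TSG-6, a secreted protein that cross-links hyaluronan by attaching heavy chains to it. It read 9.29, 9.33, 8.81 and 9.65 in mutants, against 10.79, 10.31, 10.29 and 9.42 in controls. Mutants 1 to 3 lay below every control and mutant 4 was higher than control 4, with a difference of -0.94 (SE 0.29, adjusted p = 0.211 in limma). Tnfaip6 differed by -1.25 and -0.63 within the hybridisation batches and by -0.96 with the macrophage mean in the fit. Habp4, an intracellular RNA-binding protein that also binds hyaluronan, differed by -0.42 (SE 0.13, adjusted p = 0.207 in limma), and its mutant and control arrays did not overlap. That is its brightest probe set. Averaging all probe sets of Habp4 gave -0.13, and averaging the bright ones gave -0.25. C1qbp (-0.22) and Habp2 (0.15), named after their values were seen, were also separated by genotype and had an unadjusted p above 0.05. Of all genes 8.07% were so separated.

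Of 8 other genes of hyaluronan breakdown, 5 were lower and 3 higher. Only 4 of the 8 exceeded the median probe set on every array, so the count of directions includes dim genes. Cemip, a secreted protein needed for hyaluronan breakdown by skin and joint fibroblasts, read 12.91, 12.96, 12.33 and 12.90 in mutants 1 to 4, against 12.11, 11.78, 12.10 and 12.20 in controls 1 to 4. Every mutant lay above every control, as for 2.89% of all genes. The means were 12.77 ± 0.30 in mutants and 12.05 ± 0.18 in controls (SD, n = 4 each), and the difference was 0.72 (SE 0.16, 95% interval 0.36 to 1.09) or 1.65-fold, with adjusted p = 0.178 in limma. Cemip differed by 0.98 within the first hybridisation batch, on replicates 1 and 2 of each genotype alone. There it passed (adjusted p = 0.00856 in limma), as did 11.5% of all genes. It differed by 0.47 within the second (adjusted p = 0.819 in limma), where 0 genes passed, and by 0.82 with the macrophage mean in the fit. The averaged probe sets of Cemip gave 0.49. With array weights in limma 5 of the 45 pathway genes passed, as did 8.08% of all genes. They were Cemip (0.82), Tnfaip6 (-1.22), Adamts4 (-0.77), Habp4 (-0.45) and Gnpnat1 (-0.41). The lysosomal glycosidase genes Hexa and Gusb were also named after their values were seen. They differed by 0.47 (SE 0.27) and 0.48 (SE 0.30), with adjusted p = 0.438 and 0.465 in limma. In mutant 4, the mutant with the least macrophage signal, Hexa read 12.59 and Gusb 11.43. The other mutants had 13.56 to 13.64 and 12.51 to 12.71, and controls had 12.47 to 13.27 and 11.53 to 12.18. The part of macrophage content in these differences was not tested.

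Of 6 proteases known to cut versican, 3 were lower and 3 higher, and 4 exceeded the median probe set on every array. Adamts4 differed by -0.56 (SE 0.24) and Adamts5 by -0.38 (SE 0.15), with adjusted p = 0.309 and 0.287 in limma. Adamts15 differed by 0.69 (SE 0.22, adjusted p = 0.216 in limma) and lay above the median probe set on 3 arrays.

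**Figure D3:**
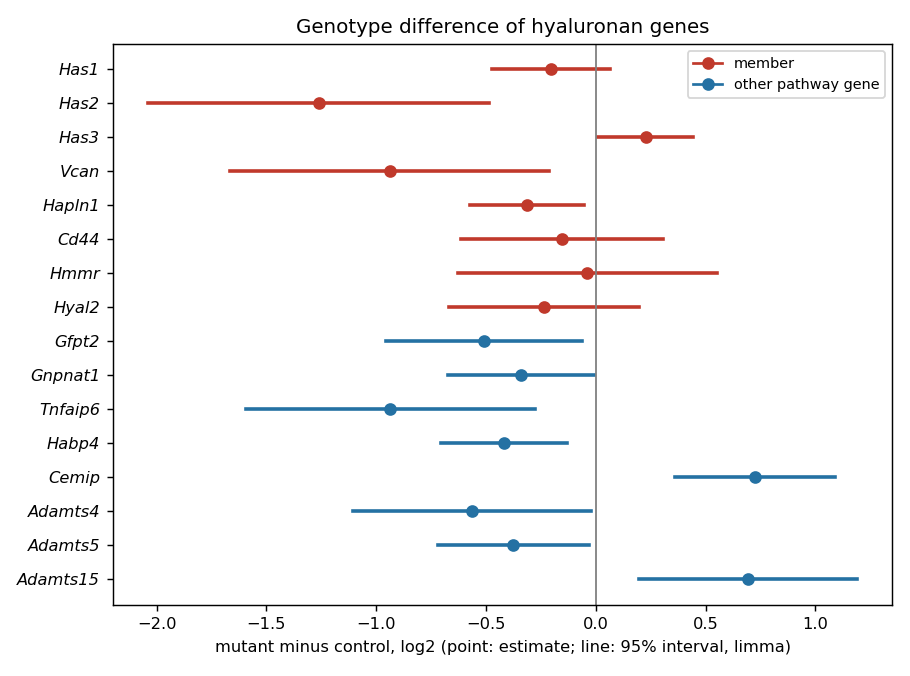
Difference between mutants and controls (horizontal axis, log2) with its 95% interval from limma for the 8 measured hyaluronan genes and the 8 other pathway genes with an unadjusted p under 0.05. Has2, Vcan and Tnfaip6 lie lowest and Cemip highest, and none passed after adjustment over all genes.

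The array values of Has2 and Vcan followed the order of the macrophage mean in part. Mutants 1, 2 and 3 had the highest macrophage means and the lowest Has2 and Vcan, and mutant 4 and controls 3 and 4 had the lowest macrophage means. Among those 3 arrays of similar macrophage mean (11.06 in mutant 4, against 11.17 and 11.01 in controls 3 and 4), Has2 read 9.61 in mutant 4, against 10.60 in both controls, whereas Vcan read 11.37 in mutant 4, against 11.94 and 11.09 in controls 3 and 4. On the brightest probe sets Vcan in mutant 4 thus lay between those controls and Has2 below both. On the other bright Vcan probe sets mutant 4 lay below both controls. It read 10.35, against 10.69 and 10.40, on 1421694_a_at, and 9.32, against 9.87 and 9.63, on 1427257_at. The contrast of Vcan with Has2 therefore rests on 1 probe set and 1 mutant array.

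**Figure D4:**
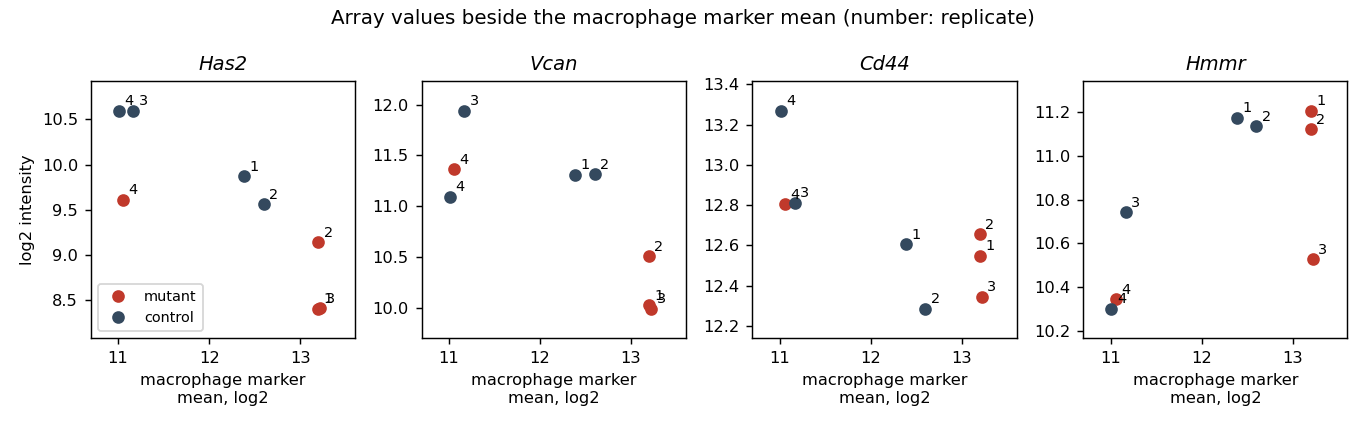
Log2 intensity of Has2, Vcan, Cd44 and Hmmr (vertical axes) against the mean of 21 macrophage and leukocyte markers on the same array (horizontal axis, log2), with mutants in red and controls in dark blue and the replicate number beside each point. Mutants 1 to 3 sit at 13.20 to 13.22 on the horizontal axis, with Has2 between 8.41 and 9.14.

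The genes whose profile over the 8 arrays was nearest to that of Has2 were Flrt2, Klhdc8a, Pmepa1, Bcat1 and Adamts12, at root mean square distances of 0.15, 0.16, 0.17, 0.19 and 0.21 log2 units after each gene was centred on its own mean. Flrt2 encodes a transmembrane adhesion protein, Pmepa1 a feedback inhibitor of TGF-beta signalling, Bcat1 the cytosolic branched-chain aminotransferase and Adamts12 a secreted metalloprotease. The median distance over the 12167 genes compared was 0.79. Vcan was at 0.38, with 119 genes nearer, and Cd44 at 0.63, with 1660 nearer. These distances describe the 8 arrays alone, on which genotype, batch and macrophage mean differ at the same time.

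**Figure D5:**
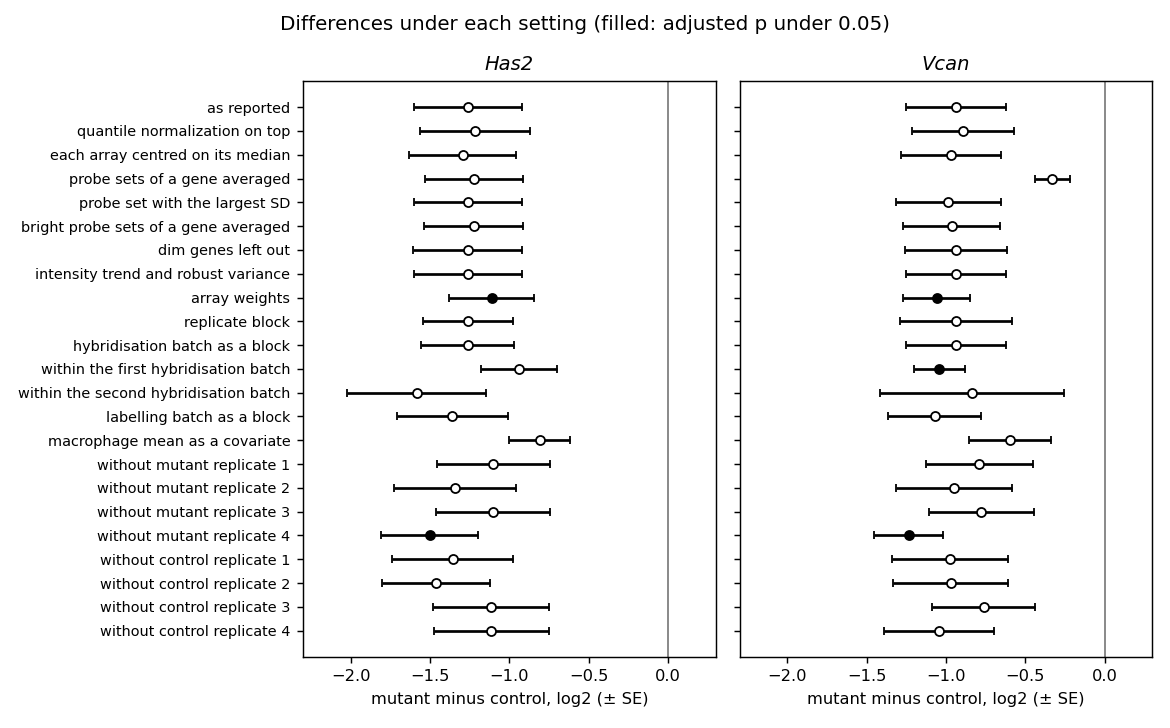
Difference between mutants and controls (horizontal axes, log2, ± SE) for Has2 and Vcan under each setting of the analysis, with filled points where the adjusted p was under 0.05. All values are below 0, from -1.58 to -0.81 for Has2 and from -1.23 to -0.33 for Vcan.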

How the data were processed

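Biotin-labelled RNA was read on Affymetrix mouse arrays. The deposited values are log2 intensities per probe set, made by the authors with RMA per the submitters' processing notes (version not given in the sources used here), and they were used without further scaling. They ran from 3.21 to 15.18. Of 45101 probe sets 64 were array controls and 34945 had 1 symbol, from the platform annotation with Entrez identifiers matched to RefSeq for 34741. Samples were grouped by title. R 4.3.3 and limma 3.58.1 gave the differences (lmFit, eBayes, two-sided, no covariate) over 18193 genes, and further probe sets over 45037. The members and lists were chosen with earlier results of these data known. The text names all members, pathway genes with an unadjusted p under 0.05, and the 5 genes nearest Has2. The fit was tested on simulated data. Those data had independent noise for each gene and no batch, macrophage difference or outlying array, so the test does not cover these features. Batches were inferred from spiked controls. Alternatives covered normalization, probe set choice, dim genes, variance, weights, batches, macrophage content and each array left out.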

Additional observations from a re-analysis of the deposited data

Results flagged for a closer look

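Among 24 sets of 4 arrays examined (8 genes and 4 marker means in each genotype), 1 held an array far from the other 3. The macrophage and leukocyte marker mean was 11.06 in mutant 4, against 13.20 to 13.22 in the other mutants. The gap took up 0.989 of the range of the 4 mutants, well past Dixon's 95% critical ratio. Chance passes the critical ratio itself in about 1 set in 20, and how often it gives a gap this wide was not tested. No hyaluronan gene had an array that far from its group.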

How the results depend on the processing

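The count of hyaluronan genes past the threshold was 0 of 8. It was 2 (Has2 and Vcan) with array weights, where 8.08% of all genes passed, and with leave-one-out fits it ran from 0 to 2, with 2 without mutant 4. It was 1 (Vcan) within the first hybridisation batch and 4 at an unadjusted p under 0.05. Other pathway genes past the threshold numbered 0 of 45, 5 with array weights and 9 within the first hybridisation batch. They numbered 0 to 6 with 1 array left out (6 without mutant 4) and 8 at an unadjusted p under 0.05. For comparison, 8.08% of the 18193 genes passed with array weights, 11.5% within the first hybridisation batch and 7.23% without mutant 4. At an unadjusted p under 0.05 that share was 15.5%. Of the 26 probe sets of the members 0 passed, and 9, against 14.1% of the 45037 tested, had an unadjusted p under 0.05. All genes past the threshold numbered 16, and 3 with the probe set of largest SD, 1470 with array weights, 2085 and 0 within the first and second hybridisation batches, 2 with a block for the inferred labelling batch, and 54 with the macrophage covariate. That count was 41 at an adjusted p under 0.1, 2826 at an unadjusted p under 0.05, and 0 to 1316 with 1 array left out, being 0 without mutant 1 or 2 or without control 1, 1 on leaving out mutant 3 or control 3, 2 without control 2, 31 without control 4 and 1316 without mutant 4. The cause was not tested.

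Same-numbered mutants and controls deviated from their group means with correlations of 0.47, 0.42, -0.09 and 0.37, not all above 0.1, so the numbers were not taken to pair the samples, although same-numbered arrays do share a bioB level. With the replicate block 0 genes passed over all genes (3828 at an unadjusted p under 0.05 in limma), and the Has2 difference was -1.26 with adjusted p = 0.143.

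Has1, Has2, Has3, Hyal2, Vcan and Hapln1 kept their sign in every alternative that gave a value; with 1 array left out Hyal2 spanned -0.36 to -0.10, nearest 0 without control 4, and Has1 spanned -0.28 to -0.11, nearest 0 without control 3. Has3 and Hapln1 gave none with dim genes left out or bright probe sets averaged. Cd44 changed sign to 0.014 with array weights, 0.16 within the first hybridisation batch, 0.066 with the macrophage covariate and 0.021 without control 4 (-0.31 to 0.021 with 1 array left out). Hmmr changed sign to 0.0042 with its probe sets averaged, 0.0088 within the first hybridisation batch and 0.079 with the labelling block, and ran from -0.22 to 0.11 with 1 array left out. Its lowest value was -0.34, with the macrophage covariate. The members are read at 4 against 4 arrays, and Has3 and Hapln1 below the median probe set.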
